A study of Mus musculus with 9 samples.

Results

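The genes described here encode the subunits, activators and base chaperones of the proteasome in naïve and primed mouse pluripotent stem cells. They were chosen by symbol, as every protein-coding gene named *Psma*, *Psmb*, *Psmc* or *Psmd* with a number, together with *Psme1* to *Psme4*, and without the interferon-inducible catalytic subunits *Psmb8*, *Psmb9* and *Psmb10*. This gave 40 genes among the 54232 in the count table. Naïve mESCs of the C57 x CBA background were kept in serum/LIF medium, and primed mEpiSCs were derived from them in F/A medium with Fgf2 and Activin A, in both cases on feeder cells. Poly(A) RNA was sequenced from 2 libraries of each state at passage 5 (P5) and 2 at passage 15 (P15), and from 1 library of MEFs, the mouse embryonic fibroblasts that serve as feeders. The naïve line carries a GFP reporter driven by the distal *Oct4* promoter. The study calls its 2 libraries of a group biological repeats without saying how the cultures were kept apart, and the p-values below measure the spread between these libraries.

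The 26S proteasome degrades proteins tagged with ubiquitin. Its 20S core is a barrel of outer alpha rings and inner beta rings, with the proteolytic sites on *Psmb5*, *Psmb6* and *Psmb7*, and the 19S particle caps it with a base, which unfolds substrates with the ATPases *Psmc1* to *Psmc6*, and a lid, which removes ubiquitin. Alternative caps are PA28αβ, made of the products of *Psme1* and *Psme2* and known from interferon responses and antigen processing, PA28γ from *Psme3*, and PA200 from *Psme4*. Embryonic stem cells are known for high proteasome activity, and the transcription factor encoded by *Nfe2l1* is known to drive subunit genes through antioxidant response elements in their promoters.

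Of the 40 genes, 31 form the core of the complex, 14 in the 20S particle and 17 in the 19S particle, and the others are 3 base chaperones, 4 activators, the germ cell alpha subunit *Psma8* and the thymic beta subunit *Psmb11*. All but *Psmb11* had at least 10 counts in at least 2 libraries, so 39 entered each test. *Psmb11*, which belongs to the thymoproteasome, had 7 counts in all over the 9 libraries and 0 in 5 of them, and it enters no comparison.

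The promoters of *Psmb6*, *Psmb5* and *Psme2* are shown because the former genes encode catalytic subunits whose mRNA fell in primed cells at P5 and the latter encodes the activator whose mRNA rose most. They are RefSeq sequences of GRCm38.p6, written 5′ to 3′ on the strand of the gene, and capitals mark the core of the antioxidant response element, TGACNNNGC, searched on both strands. The 27 bases next to the start are left out of the *Psmb5* sequence, where the motif begins 47 bases before the start, and the 12 next to the start are left out of *Psme2*, for which RefSeq holds another promoter that is not shown. *Psmb6* and *Psmb5* are among the 4 core genes with this motif, of 25 with a promoter, so the sequences shown over-represent it. RefSeq held no promoter for *Psmb7*, the other catalytic subunit gene.

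*Psmb6*, chr11:70525107-70525356, plus strand: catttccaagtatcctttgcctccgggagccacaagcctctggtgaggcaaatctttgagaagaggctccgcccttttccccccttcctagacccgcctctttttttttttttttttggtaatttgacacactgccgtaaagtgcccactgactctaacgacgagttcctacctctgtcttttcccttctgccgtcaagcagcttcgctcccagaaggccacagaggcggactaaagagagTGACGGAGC

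*Psmb5*, chr14:54618023-54618245, minus strand: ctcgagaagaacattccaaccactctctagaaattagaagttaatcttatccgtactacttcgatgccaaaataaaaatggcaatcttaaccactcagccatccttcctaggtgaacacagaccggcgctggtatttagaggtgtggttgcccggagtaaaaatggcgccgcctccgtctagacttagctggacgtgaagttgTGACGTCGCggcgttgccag

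*Psme2*, chr14:55591114-55591351, minus strand: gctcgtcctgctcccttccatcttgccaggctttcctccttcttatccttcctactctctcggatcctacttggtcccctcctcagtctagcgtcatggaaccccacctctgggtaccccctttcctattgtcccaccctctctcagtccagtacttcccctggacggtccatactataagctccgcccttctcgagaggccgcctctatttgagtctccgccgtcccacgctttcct

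RefSeq held promoters for 33 of the 40 genes, 36 in all. Within the 250 bases before the start, TGACNNNGC occurred in 5 of the 36 (13.9%), against 10.2% of 32851 promoters of all genes. The 5 were those of *Psmb5*, *Psmb6*, *Psmc6*, *Psmd9* and *Psmd12*. An interferon-stimulated response element core, GAAA followed by any 2 bases and again by GAAA, occurred in 3 of the 36 (8.33%), those of *Psmb3*, *Psmd4* and *Psmd9*, against 2.98% of all promoters, and CCAAT in 13 of 36 (36.1%) against 33.8%. Neither of the longer motifs was found in these windows of *Psme1* and *Psme2*. The 4 core genes with TGACNNNGC had a median log2 fold change in primed cells at P5 of -0.42 and the 21 without it -0.47. The difference was not tested, and a match is a description of the letters only.

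Total counts per library ranged from 14378051 to 20985136 in the pluripotent cells, and the MEF library had 25646547. The unit of level is CPM, in which counts are divided by the size of the library after TMM, edgeR's correction for library composition. Calls are at an adjusted p under 0.01 in edgeR's quasi-likelihood test, adjusted over all genes tested. The 8 naïve markers summed to between 2110.89 and 2549.57 CPM in naïve libraries, to between 239.7 and 240.7 CPM in primed P5 and to 112.0 to 114.9 CPM in primed P15, and the sum of 6 primed markers was higher in all 4 primed libraries than in all 4 naïve ones. The 3 markers of both states are *Pou5f1*, *Sox2* and *Nanog*. Their sums were 1482 and 1518 CPM in naïve P5 libraries and 465 and 470 CPM in primed P5 libraries. At P15 they were 1591 and 1614 CPM in naïve and 996 and 1002 CPM in primed libraries. *Sox2* alone was at 161 and 165 CPM in primed P5 and at 144 and 147 CPM in primed P15 libraries. Fibroblast markers were present in every library. The 25 of them stood at a median of 17.0% and 17.5% of their MEF level in naïve P5, 14.1% and 11.2% in primed P5, 19.1% and 18.8% in naïve P15 and 25.0% and 24.3% in primed P15. In these bulk samples fewer cells of a kind and less RNA per cell cannot be told apart.

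At P5 the mRNAs of nearly the whole proteasome were lower in primed mEpiSCs than in naïve mESCs. Of the 39 genes tested, 35 were lower, 2 were higher and 2 were not called, against 31.1% of all 16482 genes called lower and 31.2% called higher. The median log2 fold change of the 39 genes was -0.47, and that of all genes was 0.01. All 31 core subunits were called lower, and the primed level was between 57.5% of the naïve level for *Psmc4* and 81.4% for *Psmd8*, with a median of 70.6%. Only *Psma8* passed a fold change of 2 at P5, against 22.3% of all genes.

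**Figure D1:**
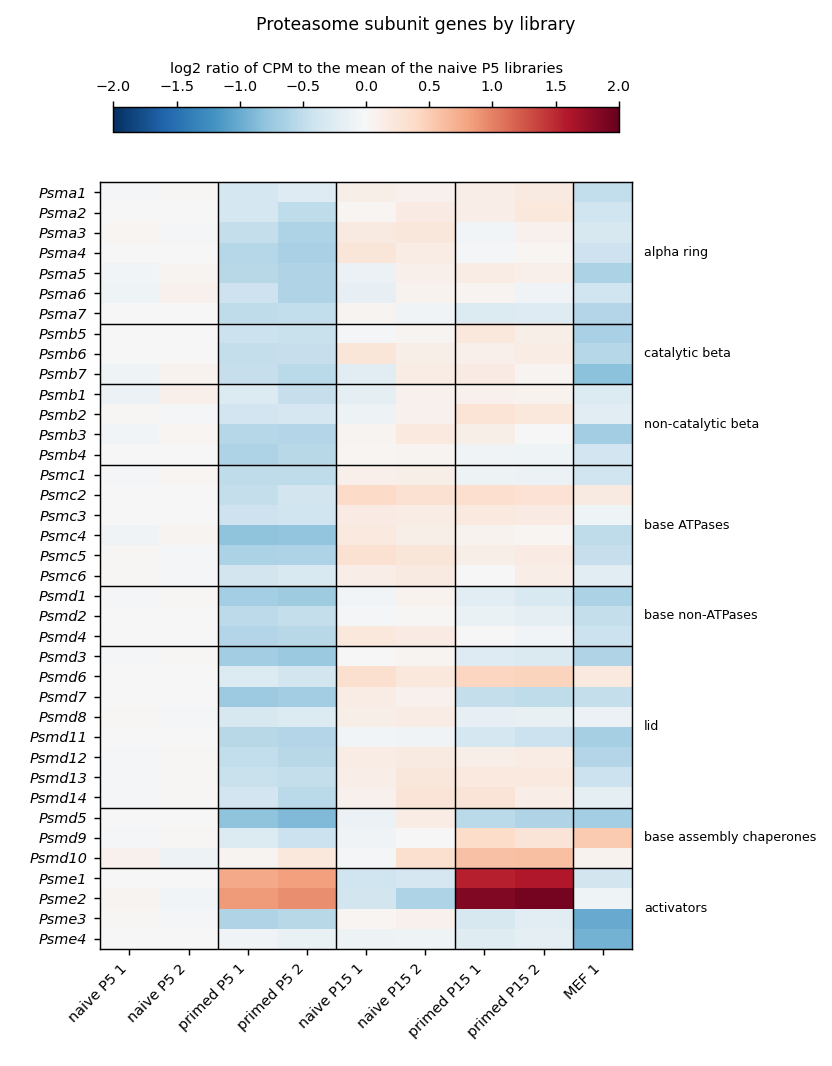
Each row is a gene and each column a library, and colour gives the log2 ratio of its CPM to the mean of the 2 naïve P5 libraries. *Psma8* and *Psmb11* are left out. Both primed P5 columns are blue for all 31 core subunits, while *Psme1* and *Psme2* are red in primed cells and reach their highest levels in the primed P15 columns.

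The catalytic subunits fell together at P5. *Psmb5*, which carries the chymotrypsin-like activity, was at 148 and 149 CPM in the naïve P5 libraries and at 109.8 and 109 CPM in the primed P5 libraries. *Psmb6*, the caspase-like subunit, was at 219 and 217 CPM in naïve and at 156 and 159 CPM in primed P5 cells. *Psmb7*, the trypsin-like subunit, was at 108 and 120.4 CPM in naïve and at 82.5 and 78.9 CPM in primed P5 cells. For each of them every primed P5 library lay below every naïve one, with log2 fold changes of -0.41 ± 0.04 (SE) for *Psmb5*, -0.44 ± 0.04 for *Psmb6* and -0.47 ± 0.05 for *Psmb7*. Their adjusted p were 7.6e-10, 2.4e-11 and 2.6e-09.

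The other beta and alpha subunits of the 20S core moved in the same direction. All 4 non-catalytic beta subunits were called lower, from -0.33 for *Psmb2* and *Psmb1* to -0.55 for *Psmb4*, and all 7 alpha ring subunits were, from -0.27 for *Psma1* to -0.58 for *Psma4*. *Psmb4*, the beta subunit with the highest level per length among the non-catalytic ones, stood at 246 and 247 CPM in naïve and 161 and 168 CPM in primed P5 cells, without overlap. *Psmb1* was no longer called without primed P5 replicate 2, where its log2 fold change was -0.22 with an adjusted p of 0.015 by the same test, nor with DESeq2's Wald test (-0.34, adjusted p = 0.028) or plain library size (-0.13, adjusted p = 0.056).

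In the 19S particle the largest decrease at P5 was that of *Psmc4*, an ATPase of the base. It was measured at 153 and 167 CPM in naïve and at 91.3 and 92.4 CPM in primed P5 libraries, a log2 fold change of -0.77 ± 0.05 (adjusted p = 4e-15). The primed libraries lay close together and far below the naïve ones. All 6 ATPases were called lower, *Psmc6* least at -0.30, and so were the 3 other base subunits, where *Psmd1*, a scaffold of the base, changed by -0.67 and the other scaffold *Psmd2* by -0.47. Of the lid, all 8 genes were lower, from -0.27 for *Psmd8* to -0.69 for *Psmd3*. The deubiquitinase of the lid, *Psmd14*, was at 99.2 and 102 CPM in naïve and 77.1 and 69.2 CPM in primed P5 cells.

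The 3 base chaperones, which help the ATPase ring assemble and are absent from the finished complex, did not move together. *Psmd5* fell from 66.5 and 67.0 CPM in naïve to 38.3 and 36.3 CPM in primed P5 cells, a log2 fold change of -0.81 ± 0.06 (adjusted p = 5.1e-13). *Psmd9* changed by -0.31 ± 0.09 (adjusted p = 0.002). By the same test this call was lost with plain library size (-0.11, adjusted p = 0.25) and without the low-count filter (-0.32, adjusted p = 0.015). It was also lost when a share of the MEF counts was subtracted (-0.32, adjusted p = 0.017). DESeq2's Wald test did not call it either (-0.32, adjusted p = 0.028). Without primed P5 replicate 2 the call was lost too, at a log2 fold change of -0.21. *Psmd10*, also known as gankyrin, was at 18.3 and 16.1 CPM in naïve and 17.8 and 19.9 CPM in primed P5 cells, so that the groups overlapped and no difference was called (0.16 ± 0.10, adjusted p = 0.16).

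The activators divided at P5. *Psme1* was at 65.8 and 65.3 CPM in naïve P5 and at 111 and 116 CPM in primed P5 libraries, and *Psme2* at 66.2 and 61.5 CPM and at 115 and 122 CPM. Both PA28αβ genes were higher in every primed library, by 0.82 ± 0.05 for *Psme1* and 0.93 ± 0.05 for *Psme2* on the log2 scale, with adjusted p of 1.8e-15 and 3.3e-16. *Psme3*, which encodes the nuclear activator PA28γ, was lower instead, at 231 and 223 CPM in naïve and 150.0 and 154 CPM in primed P5 cells (-0.55 ± 0.04, adjusted p = 2.5e-13). *Psme4*, the PA200 gene, was at 233 and 234 CPM in naïve and 222 and 213 CPM in primed P5 cells, and the difference did not pass the test (-0.07 ± 0.04, adjusted p = 0.1).

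**Figure D2:**
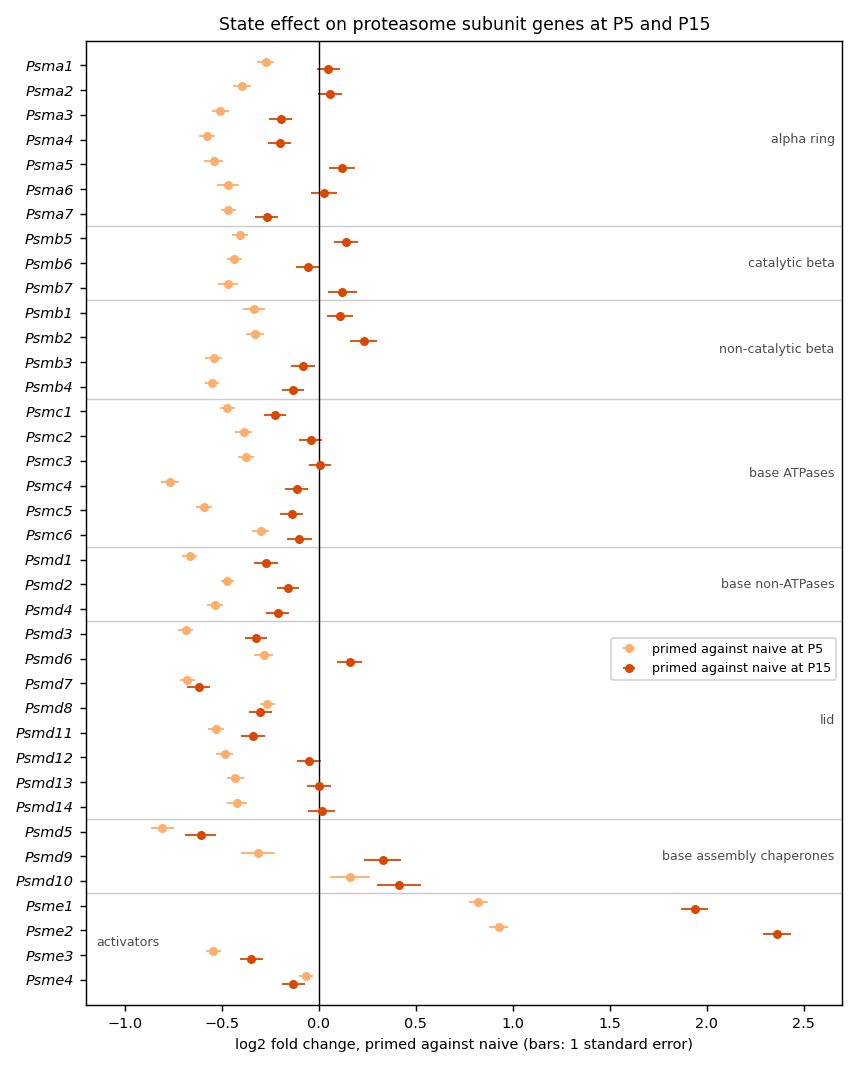
Points give the log2 fold change of primed against naïve cells at P5 (light) and P15 (dark) for each gene, with bars of 1 standard error, and *Psma8* is left out because it lies off the scale. At P5 all core subunits lie to the left of 0, from -0.77 to -0.27, whereas at P15 most lie nearer to 0 and *Psme1* and *Psme2* lie at 1.94 and 2.36.

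By P15 the difference between the states was smaller for most subunits. Of the 39 genes, 13 were lower, 5 were higher and 21 were not called, against 28.4% and 28.2% of all 15733 genes called lower and higher. The median log2 fold change of the 39 genes was -0.08 against 0.00 over all genes, and the core subunits stood at a median of 95.2% of the naïve level, from 65.5% for *Psmd7* to 118% for *Psmb2*. Of the 35 genes lower at P5, 13 were lower at P15 too, 20 were not called and 2 were higher. These were *Psmb2*, a non-catalytic beta subunit, at 0.23 ± 0.07 (adjusted p = 0.0038), and *Psmd9* at 0.33 ± 0.10 (adjusted p = 0.003). The *Psmd9* call at P15 was lost in 5 of the alternative settings. Among them were DESeq2's Wald test (0.32, adjusted p = 0.033) and edgeR's test with a block for the replicate number (0.33, adjusted p = 0.011). The *Psmb2* call was not recomputed by itself. DESeq2's Wald test called 2 of the 39 genes higher at P15 and edgeR's test with the replicate block 3, against 5. The 5 higher genes came to 2 without naïve P15 replicate 1 and to 3 without primed P15 replicate 1.

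The 3 catalytic subunits were not called at P15. *Psmb5* was at 145 and 155 CPM in naïve P15 and at 172 and 161 CPM in primed P15 libraries, a log2 fold change of 0.14 ± 0.06 (adjusted p = 0.05). *Psmb6* was at 256 and 236 CPM in naïve and 234 and 242 CPM in primed P15 cells, and *Psmb7* at 99.1 and 127 CPM and at 129 and 119 CPM, with groups that overlapped for both and adjusted p of 0.39 and 0.16. Over the whole 20S core 3 genes were lower at P15, *Psma3*, *Psma4* and *Psma7*, 1 was higher, and 10 were not called. The *Psma3* call (-0.20 ± 0.06) was lost in 5 of the alternative settings.

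In the 19S particle 7 of 17 genes were called lower at P15, beside 3 of 14 in the 20S core and 28.4% of all genes, and the difference between the particles was not tested. *Psmd7*, a lid subunit that pairs with the deubiquitinase *Psmd14*, was at 243 and 235 CPM in naïve and at 158 and 155 CPM in primed P15 libraries (-0.62 ± 0.06, adjusted p = 1.8e-11), close to its difference at P5 of -0.68 ± 0.04. *Psmd3*, *Psmd11* and *Psmd8* of the lid were lower by 0.32, 0.34 and 0.30 on the log2 scale, and *Psmd1*, *Psmd4* and *Psmc1* of the base by 0.27, 0.21 and 0.23. The chaperone *Psmd5* was at 61.7 and 74.1 CPM in naïve and 45.8 and 44.0 CPM in primed P15 cells (-0.61 ± 0.08, adjusted p = 3.9e-08). *Psmd10*, which had not been called at P5, was higher in primed P15 cells, at 25.7 and 26.2 CPM against 16.9 and 21.6 CPM (0.41 ± 0.11, adjusted p = 0.0017), although without naïve P15 replicate 1 the adjusted p was 0.12.

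The PA28αβ genes were the most raised at P15. *Psme1* was at 49.9 and 51.7 CPM in naïve P15 and at 193 and 199 CPM in primed P15 libraries, a log2 fold change of 1.94 ± 0.07 (adjusted p = 2.3e-24). *Psme2* was at 49.3 and 41.8 CPM and at 230.0 and 241 CPM, a log2 fold change of 2.36 ± 0.07 (adjusted p = 5.5e-26). Every primed library exceeded every naïve one several-fold, and with *Psma8* these were the 3 genes past a fold change of 2 at P15, against 23.2% of all genes. *Psme3* was again lower (-0.35 ± 0.06, adjusted p = 3.7e-06) and *Psme4* again not called (-0.13 ± 0.06, adjusted p = 0.047).

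**Figure D3:**
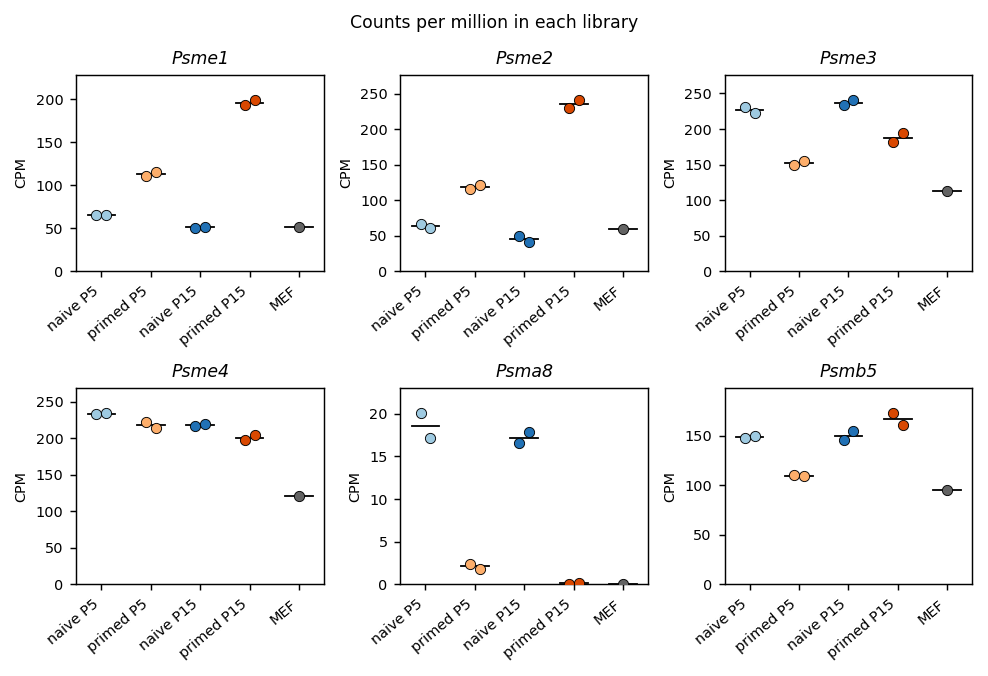
CPM of 6 genes in each library are shown as points, with a line at the mean of each group, on axes that start at 0. *Psme1* and *Psme2* rise to between 193 and 241 CPM in primed P15 cells, *Psme3* is lower in primed than in naïve cells at both passages, *Psma8* is near 0 in primed P15 cells and MEFs, and *Psmb5* is lowest among the pluripotent groups in primed P5 cells.

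*Psma8*, an alpha subunit known from the spermatoproteasome of male germ cells, was expressed in naïve cells and nearly lost in primed cells. It was at 20.04 and 17.2 CPM in naïve P5, at 2.39 and 1.83 CPM in primed P5 and at 16.6 and 17.8 CPM in naïve P15 libraries. In primed P15 cells 1 and 3 counts were found, 4 in all against 504 in naïve P15 cells, and the MEF library had 1 count. Summed counts per TMM-scaled library size were 8.77 times as high in naïve as in primed cells at P5 (95% counting interval 6.97 to 11.2). At P15 they were 151 times as high (58.6 to 557). These intervals are exact and cover counting error only. edgeR's quasi-likelihood test called both differences (adjusted p = 2.1e-16 and 8.8e-21). The primed P5 level was 11.3% of the naïve one. Beside it stand the naïve marker sums of primed P5 libraries given above, against 2508.3 and 2549.6 CPM in naïve P5 libraries. The same markers summed to 145 CPM in the MEF library, so their sum does not come from naïve cells alone. Whether naïve cells remained in the primed P5 cultures, and what part they had in the *Psma8* value, was not tested.

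Between P5 and P15 the naïve cells changed little. Of the 39 genes, 4 were higher at P15, 2 were lower and 33 were not called, against 4.21% and 5.01% of 15683 genes called higher and lower. The higher genes were *Psmc2* (0.35 ± 0.05, adjusted p = 0.00035) and *Psmc5* (0.28 ± 0.05, adjusted p = 0.0013) of the ATPase ring, the lid subunit *Psmd6* (0.26 ± 0.05, adjusted p = 0.0041) and the alpha subunit *Psma3* (0.21 ± 0.04, adjusted p = 0.0066). The lower genes were *Psme1* (-0.37 ± 0.06, adjusted p = 0.00097) and *Psme2* (-0.49 ± 0.08, adjusted p = 0.00098). The largest change, that of *Psme2*, was below a fold change of 2, which 1.13% of all genes passed. The 4 higher genes came to 2 without either of the naïve P5 replicates, to 1 without the low-count filter and to 14 with a block for the replicate number.

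In primed cells the same interval brought a rise of nearly all subunits. Of the 39 genes, 35 were higher at P15 than at P5, 1 was lower and 3 were not called, against 24.3% and 22.8% of 15957 genes called higher and lower, and the median log2 fold change was 0.53 against 0.00 over all genes. Of the core subunits 29 of 31 were higher. *Psmc4*, the core subunit that had been lowest against naïve cells at P5, went from 91.3 and 92.4 CPM to 168 and 165 CPM (0.82 ± 0.05, adjusted p = 5.6e-13), and *Psmc5* from 119.8 and 122 CPM to 203 and 209 CPM (0.74 ± 0.05, adjusted p = 2.3e-12). *Psmd8* and *Psmd11* of the lid and the activator *Psme4* were not called, with log2 fold changes of 0.11, 0.14 and -0.15. *Psme2* rose by 0.96 ± 0.05 and *Psme1* by 0.76 ± 0.05, and *Psma8*, the gene that was lower, was the only one past a fold change of 2, against 11.6% of all genes. This comparison uses the same primed P5 libraries as the comparison of the states at P5, so the decrease there and the rise here are not independent of each other.

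The difference between the state effects at the passages was tested as an interaction over all 8 libraries. Of the 39 genes, 29 had a higher primed-to-naïve ratio at P15 than at P5, 1 had a lower ratio and 9 were not called, against 13.3% and 10.8% of 16926 genes in these directions. The median change of the log2 ratio was 0.40, and 0.00 over all genes. Among the core subunits 26 of 31 were called, led by *Psma5* (0.68 ± 0.09, adjusted p = 2.1e-07) and *Psmc4* (0.67 ± 0.07, adjusted p = 1.3e-08). *Psmd7* and *Psmd8*, with 0.07 ± 0.07 and -0.02 ± 0.07, were not called. The 3 genes past a fold change of 2, against 7.16% of all genes, were *Psma8*, *Psme1* and *Psme2*.

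The scaling of the libraries sets where these differences are centred. When the fits used plain library size and no TMM factor, the median of all genes moved to 0.21 at P5, 0.10 at P15, -0.13 between the passages in primed cells and -0.11 for the interaction, and the share of calls that were higher went from 50.1% to 65.8% at P5, from 51.5% to 34.2% between the primed passages and from 55.0% to 35.2% for the interaction. Relative to the median of all genes, the median of the 39 genes was then -0.48 at P5, -0.08 at P15, 0.53 between the primed passages and 0.40 for the interaction, values that a scaling leaves nearly as they were because it shifts every gene by about the same amount. At P5 this scaling called 28 of the 39 genes lower and 4 higher, beside 10357 calls among all 16482 genes, 65.8% of them higher. At P15 it turned the sign of the median of the 39 genes, to 0.02. With this scaling 7 of them were lower and 8 higher at P15, beside 8817 calls among all 15733 genes, 58.8% of these higher. No direction is therefore given for the family at P15. The share of all counts taken by the 40 genes was 0.598% and 0.612% in naïve P5, 0.520% and 0.517% in primed P5, 0.621% and 0.639% in naïve P15 and 0.655% in both primed P15 libraries.

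Feeder RNA moves with these comparisons as well. In the MEF library, 29 of the 31 core subunits were below their mean naïve P5 level, at a median of 73.9% of it and between 56.6% and 114%, and *Psme1* and *Psme2* were at 50.9 and 60.1 CPM. The median share over the markers was lowest in primed P5 and highest in primed P15 libraries, whereas their summed CPM were higher in naïve P15 (16306.7 to 17115.3) than in primed P15 libraries (14368.9 to 15000.6). When each library's share of the MEF counts was subtracted, the median log2 fold change of the tested genes was -0.54 at P5, -0.05 at P15 and 0.65 between the primed passages. The single markers differed widely in their share of the MEF level, down to 0.671% in primed P5 replicate 2, and some lay above it. *Dcn* was at 465 and 457 CPM in primed P5 and 720.0 and 749 CPM in primed P15 libraries against 211 CPM in MEFs, and *Lum* at 299 and 323 CPM in primed P15 libraries against 148 CPM. The share subtracted is therefore a rough one and not a measure of feeder RNA alone, and the part of feeder RNA in the comparisons was not tested.

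Levels of different subunits were compared per exon length, as TPM, counts per base of exon scaled to the same total in each library. In naïve P5 cells the core subunits spanned 75.0 TPM for *Psmd11* to 473 TPM for *Psmb5*, a ratio of 6.30. With each gene's longest transcript as its length, the span was 86.1 TPM for *Psmc2* to 494 TPM for *Psmb6*, a ratio of 5.74. In primed P15 cells the ratios by these lengths were 9.27 and 5.75. *Psmb5* had the highest mean of the core subunits in all 4 pluripotent groups, although in naïve P15 cells it lay within the spread of *Psmc5* (455 ± 24.5 and 441 ± 10.3 TPM). Its mean in naïve P5 cells was 473 ± 10.2 TPM (SD, n = 2), above *Psmc5* at 383 ± 3.33 TPM and *Psmb4* at 361 ± 6.93 TPM. *Psmc5* and *Psmb4* were each above *Psmb6* at 333 ± 3.12 TPM, while *Psmb4*, *Psmc1* at 357 ± 20.9 TPM and *Psma6* at 347 ± 34.5 TPM lay within each other's spread. The top of this order rests on the length used, since with the longest transcript *Psmb6* was highest in all 4 groups, at 494 TPM in naïve P5 cells against 362 TPM for *Psmb5*. In the alpha ring *Psma2* was lowest, at 123 ± 1.98 TPM, and among the catalytic subunits *Psmb7* was lowest, at 95.6 ± 8.83 TPM. The chaperones *Psmd5*, *Psmd9* and *Psmd10* lay far below the subunits, at 26.4, 10.8 and 33.5 TPM.

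The balance of the activators differed between the states. The TPM of *Psme1* and *Psme2* together were 0.860 and 0.851 times that of *Psme3* in naïve P5 libraries, 2.28 and 2.32 times in primed P5, 0.637 and 0.577 times in naïve P15, and 3.53 and 3.45 times in primed P15, with no overlap between states. With the longest transcript as length the ratio of the group means went from 1.17 in naïve P5 to 3.16 in primed P5 and from 0.818 in naïve P15 to 4.87 in primed P15 cells, so the rise held with both lengths although the ratio in naïve P5 cells lay on the other side of 1. Set against the median level of a 20S subunit, their mean was 44.4% and 42.6% in naïve P5 and 142% and 150.0% in primed P15 libraries. Within the pair and per union exon length, *Psme2* stood at 1.26 and 1.18 times the TPM of *Psme1* in naïve P5 and at 1.49 and 1.52 times in primed P15 cells. *Psma8* reached 10.6% and 9.07% of the TPM of its somatic counterpart *Psma7* in naïve P5 cells and 0.0366% and 0.107% in primed P15 cells.

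**Figure D4:**
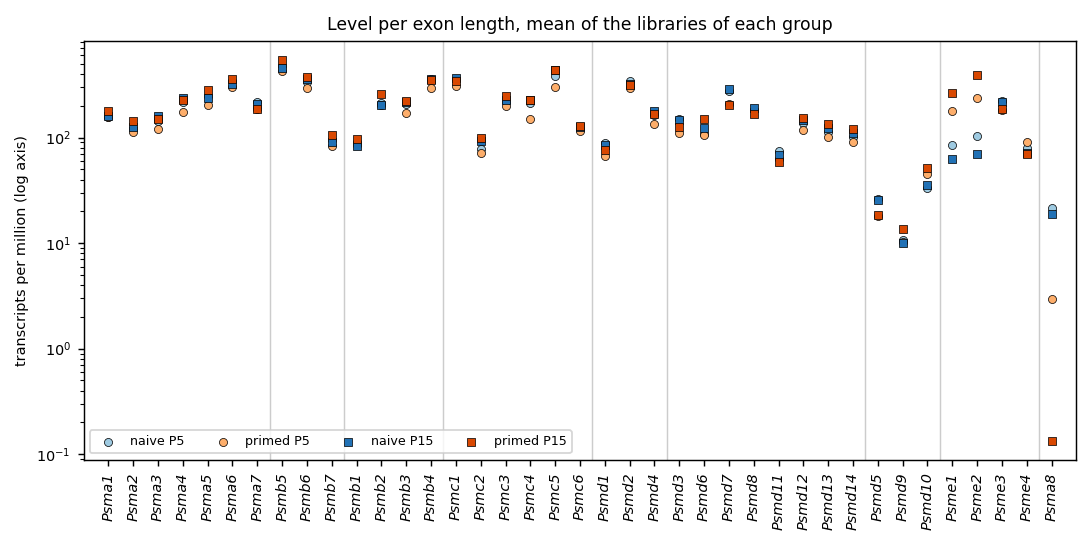
TPM on a log axis, as the mean of the 2 libraries of each pluripotent group, are shown for 39 genes in the order of their classes (alpha ring, catalytic beta, other beta, base ATPases, other base, lid, chaperones, activators, *Psma8*). The core subunits lie between about 59 and 546 TPM, the 3 chaperones between 10.01 and 52.1 TPM, and *Psma8* between 0.134 and 21.4 TPM.

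Other genes of the pathway came from lists written by hand, whose counts stand beside 31.1% of all genes called lower and 31.2% higher at P5, and 28.4% and 28.2% at P15. The 3 immunoproteasome subunits, the catalytic replacements with which PA28αβ is induced by interferon, were all called higher in primed cells at both passages. *Psmb8* was at 7.76 and 10.9 CPM in naïve P5, 38.6 and 37.1 CPM in primed P5, 2.87 and 2.81 CPM in naïve P15 and 92.0 and 93.0 CPM in primed P15 libraries, which made it higher in primed cells by 2.05 ± 0.11 at P5 and by 5.01 ± 0.12 at P15 on the log2 scale, with adjusted p of 1.5e-16 and 9.1e-30. *Psmb9* changed by 1.47 and 2.28 and *Psmb10* by 0.74 and 2.24 at the respective passages, and the interaction was called for all 3 genes. *Psmb8* thus had higher CPM in every primed library than in every naïve one, as *Psme1* and *Psme2* did.

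The assembly factors of the 20S core were mostly lower at P5. Of 5 assembly factors 4 were lower at P5, among them *Pomp*, the maturation factor of the beta ring, at -0.44, and 1 was lower at P15. Of 5 shuttle factors, which carry ubiquitinated proteins to the proteasome, 4 were lower and 1 was higher at P5, with 3 and 1 at P15. Of 10 further subunits and bound factors, 4 were lower and 1 was higher at P5, with 3 and 2 at P15. The p97 complex extracts ubiquitinated proteins from larger structures. Of its 3 genes 2 were lower at P5, and the 3 were not called at P15, with log2 fold changes of 0.06 to 0.14. *Nfe2l1* itself was higher in primed cells at P5 (0.23 ± 0.04, adjusted p = 1.2e-06). Of the 4 genes listed for transcription of proteasome genes 2 were higher at P5. The 4 were not called at P15, with log2 fold changes between -0.01 and 0.27.

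Reads from near-identical gene copies could be split or shared by the counting. Of the 40 genes, 13 had another annotated gene at 95% identity or more over at least 200 bases, and those copies held at most 1.63% of the counts of the member, for *Psma3*, and 0.365% for *Psme2*. *Psmd9* shares 25.5% of its exon bases with a gene on the opposite strand, *Psmb7* 11.8% and *Psmd13* 10.1%, and *Psmb5* shares 12.1% with *Mir686* on the same strand. The strand setting of the counting is not given in the sources used here, so reads in those stretches may not be separable.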

How the data were processed

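RNA-seq of 9 libraries was used, 2 for each state and passage and 1 for MEFs, grouped by their titles. The deposited table holds raw counts per Ensembl gene. The authors trimmed reads with Cutadapt, aligned them to mm10 with HISAT2 and counted them with featureCounts, and the annotation release, strand setting and treatment of multiple alignments are not given in the sources used here. The 92 spike-in rows, all at 0 counts, were dropped. Libraries held 14378051 to 25646547 counts, and a count of 0 allows up to 3 counts in a library.

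Genes were named by GENCODE M21, which named 54165 of 54232 IDs. Computations used R 4.3.3 with edgeR 4.0.16 and DESeq2 1.42.0, Python 3.11.15 and BLAST+ 2.17.0. Each comparison was a TMM-scaled fit with edgeR's quasi-likelihood test over the genes that reached 10 counts in 2 or more of its libraries, with Benjamini-Hochberg adjustment over all genes tested, and calls are at an adjusted p under 0.01. SE is the log2 fold change divided by the square root of the test's F. CPM were scaled by TMM over all 9 libraries, and TPM used union exon length. The MEF library entered no fit. Between replicates the chi-square per gene was 2.10 to 3.28, so no pair agreed within sampling noise. The code was tested on simulated data.

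The genes and lists were chosen with earlier results of these data known. Named genes were those past a fold change of 2, the 4 largest called changes in each direction, activators, catalytic and tissue-restricted subunits, and those with the highest or lowest level per length in a class, and, of other pathway genes, those past a fold change of 2 between the states. Others named by value, such as *Psmb2*, *Psmd8*, *Psmd14*, *Pomp* and *Nfe2l1*, were chosen after their values were seen. The gene *Paaf1* of the assembly list was not found by that name, and the results of 1 other pathway list are not reported here. The alternatives were DESeq2's size factors and Wald test, plain library size, tests without a low-count filter, a replicate block, a fit of all 8 libraries, feeder subtraction and leaving out each replicate.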

Additional observations from a re-analysis of the deposited data

Results flagged for a closer look

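For 33 genes, 30 of the 40 chosen and the 3 immunoproteasome genes, the difference between primed and naïve cells was not the same at P15 as at P5 in edgeR's interaction test, with adjusted p of 0.0049 or less. Of all 16926 genes tested, 13.3% were called higher and 10.8% lower. Other pathway genes were not flagged here. The test called 3 of 5 assembly factors, 4 of 10 further subunits and bound factors, 1 of 5 shuttle factors and 1 of 3 p97 genes higher. Of the 4 genes listed for transcription of proteasome genes it called 0. The values that follow are the log2 fold change of primed against naïve cells at P15 less that at P5.

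For the restricted and inducible genes the values were -4.05 for *Psma8*, which fell further in primed cells, 2.98 for *Psmb8*, 1.52 for *Psmb10*, 0.83 for *Psmb9*, 1.45 for *Psme2* and 1.13 for *Psme1*, whose excess in primed cells grew.

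For the subunits of the 20S core, whose deficit in primed cells at P5 had shrunk or turned by P15, they were 0.68 for *Psma5*, 0.51 for *Psma6*, 0.47 for *Psma2*, 0.39 for *Psma4*, 0.34 for *Psma1*, 0.33 for *Psma3*, 0.60 for *Psmb7*, 0.58 for *Psmb2*, 0.56 for *Psmb5*, 0.48 for *Psmb3*, 0.46 for *Psmb1*, 0.43 for *Psmb4* and 0.40 for *Psmb6*.

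For the 19S base they were 0.67 for *Psmc4*, 0.47 for *Psmc5*, 0.40 for *Psmc3*, 0.36 for *Psmc2*, 0.26 for *Psmc1*, 0.41 for *Psmd1*, 0.34 for *Psmd4* and 0.33 for *Psmd2*. For the lid they were 0.46 for *Psmd6*, 0.45 for *Psmd12*, *Psmd13* and *Psmd14* alike, and 0.38 for *Psmd3*. The chaperone *Psmd9* had 0.66.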

How the results depend on the processing

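With 2 libraries a group, leaving out a replicate leaves 1, which is then assumed to vary like the others. Over 180 recomputed counts and medians, 141 stayed within 1.5 times the count, or within the 0.028 by which the median of the genes differs between replicates, and 39 moved, for causes that were not tested except as stated. With library size alone, 4 genes were higher at P5 and the median was -0.27, at P15 the 8 higher and 7 lower came with a median of 0.022, 2 were lower between the primed passages with a median of 0.40, and the interaction median was 0.28, all by construction of a shift of every gene. Without the low-count filter, 1 and 0 genes were higher and lower between the naïve passages (551 genes called in all, against 1446; *Psme1* and *Psme2* had adjusted p of 0.01 and 0.019), and the medians were 0.56 between the primed passages and 0.43 for the interaction. With feeder subtraction the medians were -0.54, -0.045, 0.13, 0.65 and 0.50 in the order of the report, and 2 genes were higher between the naïve passages. DESeq2's Wald test called 2 genes higher at P15, and DESeq2's size factors and the fit of all 8 libraries each called 2 lower between the primed passages. The log2 ratio of the summed share of the genes at P15 turned to -0.0391 with TMM-scaled library size.

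Deviations of same-numbered libraries correlated at -0.12 at P5 and at P15 and at 0.13 and 0.12 between passages, and with 2 numbers a group and no label of a shared batch the replicate numbers were not taken as a pairing. With a replicate block, 3 genes were higher at P15, 14 were higher between the naïve passages (2783 genes in all) and 2 were lower between the primed passages. Crossed pairs, tried after seeing the data, called 10675 genes at P5 and 9477 at P15, against 10274 and 8899 without a block.

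Leaving out each replicate gave the following ranges. At P5 the median was between -0.50 and -0.42. At P15, 2 to 6 genes were higher and the median was between -0.11 and -0.045. Between the naïve passages 2 to 6 genes were higher, with a median of 0.052 to 0.11. Between the primed passages 0 to 2 genes were lower, with a median of 0.50 to 0.54, and 0 came from leaving out either primed P5 library, where *Psma8* no longer passed the low-count filter. The interaction median was between 0.37 and 0.42. For the genes named, 86 calls were recomputed 1038 times and 58 of these were past the threshold no more, 25 of them on leaving out a replicate, while the sign changed in 0. Depth limits *Psma8* in primed P15 cells and *Psmb11* throughout.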

Other observations

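Of the proteasome-associated genes outside the chosen set, *Ecpas* and *Ubqln2* were higher in primed cells at P5, where the core subunits were lower. *Sem1*, a small lid subunit with a symbol of another form, was at 40.3 and 50.8 CPM in naïve P5, 52.0 and 47.1 CPM in primed P5, 42.1 and 49.9 CPM in naïve P15 and 78.3 and 70.9 CPM in primed P15 libraries. The states overlapped at P5 (0.16 ± 0.08 on the log2 scale, adjusted p = 0.072, not called), and at P15 it was higher in primed cells by 0.68 ± 0.08 on the log2 scale (edgeR's quasi-likelihood test, adjusted p = 2.8e-09). Its MEF level was 102 CPM. *Ecpas*, a scaffold that binds the 26S proteasome, was at 62.5 and 65.0 CPM in naïve and 97.1 and 99.0 CPM in primed P5 cells (0.65 ± 0.05, adjusted p = 8.7e-13) and was higher at P15 too (0.91 ± 0.07, adjusted p = 3.9e-14), with 119 CPM in MEFs. The shuttle factor *Ubqln2* was higher in primed cells at both passages (0.65 ± 0.04 and 0.67 ± 0.07), while *Ubqln4* was lower (-0.95 ± 0.04 and -0.75 ± 0.06). These genes were chosen after their values were seen.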
